A study of Mus musculus with 6 samples.

Results

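Nodal and activin signalling was described in mouse embryonic stem cells that live on a coelacanth POUV protein in place of mouse OCT4. The genes were 10 members of the pathway, chosen by name: Nodal, Gdf3, Inhba, Inhbb, Tdgf1, Acvr2b, Lefty1, Lefty2, Fst and Smad7. Array probes were assigned to them through their RefSeq accession, which gave 13 of the 55681 non-control probes, and 9 of the 10 genes passed the filter on dim signals among 14590 genes tested. Inhba did not pass.

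The cells were stable lines of ZHBTc4, a mouse embryonic stem cell line whose own Oct4 alleles are inactivated and whose remaining Oct4 transgene is shut off by tetracycline. All 6 lines were kept with tetracycline (2 µg/mL) and puromycin (1 µg/mL, from day 2 after electroporation) and with LIF and serum on gelatin, and colonies were picked at day 9. A pCAG-IP plasmid supplied the rescuing protein, which was coelacanth POU5F1 (LcPOU5F1, clones 4 and 5), coelacanth POU5F3 (LcPOU5F3, clones 1 and 2) or mouse OCT4 (mOct4, clones 1 and 2). Each line is 1 picked clone measured on 1 single-colour Agilent array, so the spread within a group is that between 2 clones. The labels do not say whether clones came from separate electroporations. The series asks how far vertebrate POUV proteins can take over the role of mouse OCT4 in pluripotency.

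In this pathway, Nodal, GDF3 and the activins are secreted ligands of the TGF-beta family that bind type I and type II activin receptors, and Nodal and GDF3 also need the co-receptor Cripto, the product of Tdgf1. The receptors phosphorylate SMAD2 and SMAD3, which enter the nucleus with SMAD4 and act with partners such as FOXH1. Lefty proteins and follistatin block the ligands outside the cell and SMAD7 blocks the receptors inside it, and several of these inhibitors are themselves induced by the signal. Mouse embryonic stem cells are known to make Nodal and to signal through this pathway in culture.

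Detection was 48.1% and 43.7% of probes on the LcPOU5F1 arrays, 43.4% and 53.3% on the LcPOU5F3 arrays, and 57.5% and 57.8% on the mOct4 arrays. No spot was saturated. Signals of like size can thus be well above background on an mOct4 array and not on another, which limits comparisons of this flag between groups. Of 8 embryonic stem cell markers, 7 were well above background on every array, and the probe for Pou5f1 was so only on the mOct4 arrays. The summed level of these markers, as linear signal over the array's 75th percentile, was 352.5 and 458 in the LcPOU5F1 clones, 126 and 76.3 in the LcPOU5F3 clones, and 406.8 and 441.6 in the mOct4 clones. The same sum over 8 trophectoderm markers was 31.4 and 22.9 in the LcPOU5F1 clones, 508.9 and 534.9 in the LcPOU5F3 clones, and 31.6 and 31.5 in the mOct4 clones. Krt18 and Krt8, keratin genes of simple epithelia, carry most of that sum in the LcPOU5F3 clones, with log2 levels of 8.56 and 8.60 for Krt18 and 6.42 and 6.71 for Krt8. For LcPOU5F3 over mOct4, Krt18, Krt8, Krt7, Cdx2 and Gata3 rose, while Hand1 (-0.018, adjusted p = 0.989) and Tfap2c (0.054, adjusted p = 0.854) did not pass and Elf5 was not tested. In the LcPOU5F3 clones 7 of the 8 trophectoderm markers were well above background and Elf5 was not, against 6 and 4 in the LcPOU5F1 clones and 7 and 6 in the mOct4 clones. The sum over 8 primitive endoderm markers was 33.2 and 47.6 in the LcPOU5F1 clones, 18.3 and 13.9 in the LcPOU5F3 clones, and 24.4 and 25.1 in the mOct4 clones. It is mostly the laminin gene Lama1, which did not pass for LcPOU5F3 over mOct4 (-0.84, adjusted p = 0.0978), and Dab2 of the same list was well above background in both LcPOU5F3 clones and in neither mOct4 clone. Amn of that list went the other way and was lower for LcPOU5F3 over mOct4 (-1.56, adjusted p = 0.01), while Gata4 and Sox17 did not pass. The sum over 5 fibroblast markers was 0.903 and 0.9 in the LcPOU5F1 clones, 4.32 and 3.57 in the LcPOU5F3 clones, and 2.08 and 1.68 in the mOct4 clones. It is mostly Thy1 in the LcPOU5F3 clones (1.29 over mOct4, adjusted p = 0.0175), while Col1a1 and Col1a2 were at -0.80 and -0.45 without passing. Pdgfra, Postn and the mesoderm markers T, Mixl1 and Mesp1 were below background on all arrays. Kdr and Eomes, the other mesoderm markers, were well above background on all arrays. The sum over all 5 mesoderm markers was 8.0 and 6.9 in the LcPOU5F1 clones, 6.7 and 5.9 in the LcPOU5F3 clones, and 9.0 and 11.6 in the mOct4 clones. These marker differences stand beside the LcPOU5F3 differences given below, and their part in them was not tested. In bulk RNA, fewer cells of a type and less RNA per cell cannot be told apart.

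Of the 9 measured genes, Inhbb and Tdgf1 were the ones that fell in the LcPOU5F3 clones against the mOct4 clones, and RefSeq gives a start site for both. The 250 bases before each start (GRCm38.p6) are shown because both genes fell. They were searched on both strands for the octamer ATGCAAAT, a SOX motif CATTGTT, a SMAD motif CAGACA and a FOXH1 motif AATNCACA, and none of these letters occurred in either window. Capitals mark GGGCGTGG, a KLF motif added after the sequences were read; it does not overlap the other motifs.
Tdgf1, chr9:110946159-110946408, minus strand: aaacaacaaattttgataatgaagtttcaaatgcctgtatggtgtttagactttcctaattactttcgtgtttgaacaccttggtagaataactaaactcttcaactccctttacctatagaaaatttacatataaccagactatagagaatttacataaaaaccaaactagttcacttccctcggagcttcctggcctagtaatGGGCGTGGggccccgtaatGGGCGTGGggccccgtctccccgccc
Inhbb, chr1:119422249-119422498, minus strand: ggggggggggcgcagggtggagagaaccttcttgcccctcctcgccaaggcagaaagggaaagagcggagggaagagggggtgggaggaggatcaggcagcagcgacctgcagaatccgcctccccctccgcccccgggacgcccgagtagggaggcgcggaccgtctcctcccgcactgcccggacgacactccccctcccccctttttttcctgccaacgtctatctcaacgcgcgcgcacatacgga

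The KLF motif occurred 2 times in the Tdgf1 window, at 45 to 38 and at 26 to 19 bases before the start, and not in the Inhbb window. Of 32851 RefSeq windows of this length, 4.8% held the KLF motif, 1.6% the octamer, 3.3% the SOX motif, 17.1% the SMAD motif and 3.2% the FOXH1 motif. The windows also differed in composition, with 42% G and C for Tdgf1 and 68% for Inhbb, against a median of 52.4% over all windows. The table held a window for 5 of the 10 genes, the others being Nodal, Acvr2b and Inhba.

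Levels below are log2 processed intensity minus the 75th percentile of the array, so that 0 is that percentile, and a level of 1 probe is not set against that of another. Differences are log2 fold changes with standard errors from limma, fitted to all 6 arrays, with p-values adjusted by Benjamini-Hochberg over all 14590 genes and called under 0.05. Each standard error thus pools the spread between clones over the 3 groups, including the group not compared.

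**Figure D1:**
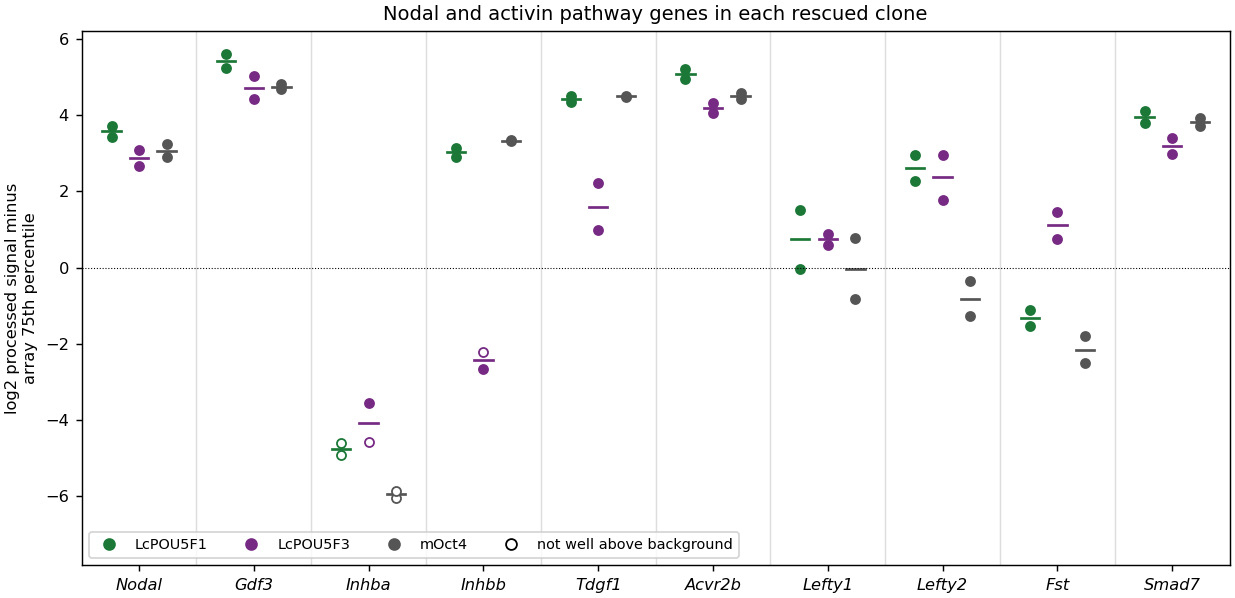
Level of each gene in each clone, as log2 processed intensity minus the array's 75th percentile. Points are clones (n = 2 per group), short lines are group means, and open points were not well above background. Inhbb and Tdgf1 lie lowest in the LcPOU5F3 clones, Fst lies highest there, and Lefty2 is higher in all 4 coelacanth-rescued clones than in both mOct4 clones.

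Among the ligands, Nodal was expressed in all 6 lines. Its levels were 3.73 and 3.42 in the LcPOU5F1 clones, 3.08 and 2.68 in the LcPOU5F3 clones, and 3.23 and 2.89 in the mOct4 clones. The LcPOU5F1 clones were highest, and the ranges of the other groups overlapped. Nodal passed no test, with 0.51 ± 0.23 for LcPOU5F1 over mOct4 (adjusted p = 0.369) and -0.18 ± 0.23 for LcPOU5F3 over mOct4 (adjusted p = 0.594). The 95% interval of the LcPOU5F3 difference ran from -0.78 to 0.41. The difference LcPOU5F1 over LcPOU5F3 was 0.69 ± 0.23 (adjusted p = 0.091), and it passed without LcPOU5F3 clone 1 (0.90, adjusted p = 0.043).

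Gdf3, a ligand expressed in pluripotent cells, had levels of 5.61 and 5.22 in the LcPOU5F1 clones, 4.42 and 5.03 in the LcPOU5F3 clones, and 4.81 and 4.68 in the mOct4 clones on its brighter probe. The LcPOU5F1 clones were again highest, and the mOct4 clones lay within the range of the LcPOU5F3 pair. Gdf3 differed by 0.67 ± 0.26 for LcPOU5F1 over mOct4 (adjusted p = 0.32), by -0.02 ± 0.26 for LcPOU5F3 over mOct4 (adjusted p = 0.959) and by 0.70 ± 0.26 for LcPOU5F1 over LcPOU5F3 (adjusted p = 0.117). A second Gdf3 probe gave 0.50, -0.41 and 0.91 for these differences.

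Inhbb encodes the beta B subunit shared by activin B and inhibin B, and it showed the widest range over the arrays of the 9 genes, at 5.99. Its levels were 3.13 and 2.91 in the LcPOU5F1 clones, -2.22 and -2.65 in the LcPOU5F3 clones, and 3.34 and 3.32 in the mOct4 clones. Linear intensities, which are not scaled between arrays, were 3233 and 2448 in the LcPOU5F1 clones, 101.6 and 66.9 in the LcPOU5F3 clones, and 3456 and 2986 in the mOct4 clones. In the LcPOU5F3 pair, clone 1 was not well above background and clone 2 was. Inhbb fell by 5.76 ± 0.20 in the LcPOU5F3 clones against the mOct4 clones, a 54.4-fold difference (adjusted p = 0.0025), and was 43.8-fold higher in the LcPOU5F1 clones than in the LcPOU5F3 clones (5.45 ± 0.20, adjusted p = 0.0021). The mean of the LcPOU5F3 pair thus includes a signal near background, and with clone 2 alone Inhbb fell by 5.98 against the mOct4 clones (adjusted p = 0.0013). LcPOU5F1 over mOct4 differed by -0.31 ± 0.20 (95% interval -0.82 to 0.20, adjusted p = 0.483).

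Inhba, which encodes the beta A subunit of activin A, was well above background on 1 array, that of LcPOU5F3 clone 2. Its signals were -4.91 and -4.61 in the LcPOU5F1 clones, -4.59 and -3.56 in the LcPOU5F3 clones, and -6.04 and -5.85 in the mOct4 clones. Signals this dim have no order between arrays with different backgrounds, and no fold can be given.

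Tdgf1, the gene of the co-receptor Cripto, was measured by 3 probes that were well above background on all arrays. On the brightest, its levels were 4.33 and 4.51 in the LcPOU5F1 clones, 2.22 and 0.98 in the LcPOU5F3 clones, and 4.48 and 4.51 in the mOct4 clones. Both LcPOU5F3 clones were below the other 4 lines, and they differed from each other by 1.24. Tdgf1 fell by 2.89 ± 0.41 in the LcPOU5F3 clones against the mOct4 clones, which is 7.43-fold (adjusted p = 0.013), and was 7.08-fold higher in the LcPOU5F1 clones than in the LcPOU5F3 clones (2.82 ± 0.41, adjusted p = 0.016). LcPOU5F1 over mOct4 differed by -0.07 ± 0.41 (95% interval -1.12 to 0.98, adjusted p = 0.941). The LcPOU5F3 pair enters that standard error, which was 0.14 with only the 4 arrays compared.

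The other Tdgf1 probes moved alike. In the fit of all 30939 kept probes, LcPOU5F3 over mOct4 was -2.51 ± 0.38 and -3.01 ± 0.48 on these probes (adjusted p = 0.022 and 0.025), and -2.89 ± 0.41 on the brightest (adjusted p = 0.021). Over all kept probes, 12.6% were called in that comparison, and 10.7% for LcPOU5F1 over LcPOU5F3, where the 3 Tdgf1 probes were at 2.50, 3.00 and 2.82 (adjusted p = 0.025, 0.028 and 0.024). LcPOU5F1 over mOct4 was between -0.07 and -0.01 on all 3. The LcPOU5F3 clones differed from each other by 0.19 on the dimmest probe and by 1.45 and 1.24 on the others. RefSeq lists the pseudogenes Tdgf1-ps1 and Tdgf1-ps2, whose transcripts the probes may also read.

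**Figure D2:**
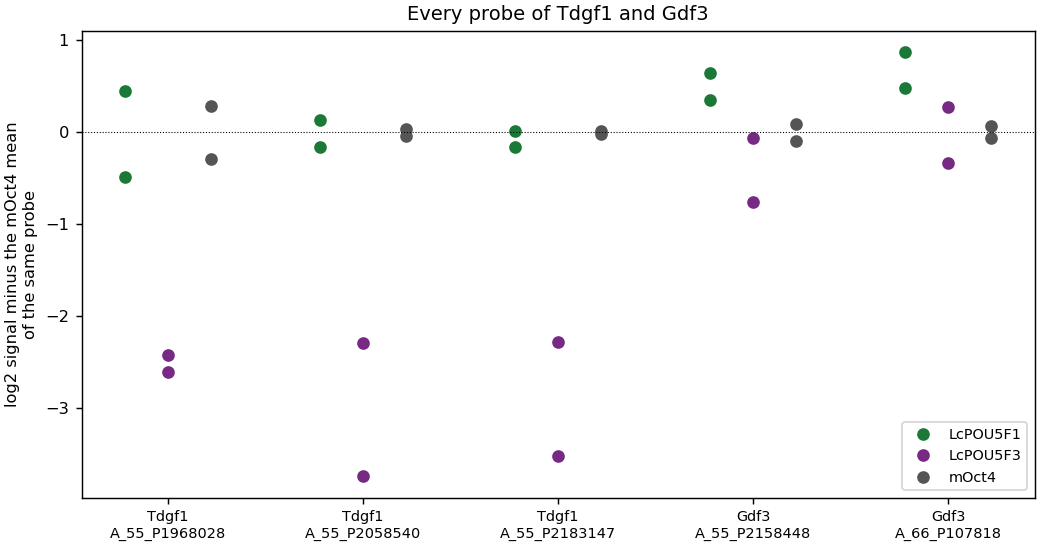
Every probe of Tdgf1 and Gdf3, as log2 signal minus the mean of the mOct4 clones on the same probe. Points are clones. All 3 Tdgf1 probes place both LcPOU5F3 clones over 2 log2 units below the mOct4 mean, and on both Gdf3 probes all points lie within 1 log2 unit of it.

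Acvr2b encodes a type II activin receptor. Its levels were 4.95 and 5.20 in the LcPOU5F1 clones, 4.31 and 4.06 in the LcPOU5F3 clones, and 4.57 and 4.42 in the mOct4 clones, so the 3 groups did not overlap. The steps were small: 0.58 ± 0.18 for LcPOU5F1 over mOct4 (adjusted p = 0.255) and -0.31 ± 0.18 for LcPOU5F3 over mOct4 (adjusted p = 0.256). LcPOU5F1 over LcPOU5F3 passed, at 1.86-fold higher (0.89 ± 0.18, adjusted p = 0.03). Centring arrays on their median in place of the 75th percentile ended that call (0.49 ± 0.45, adjusted p = 0.639). The standard error rose from 0.18 to 0.45 in that fit, so both the difference and its test changed.

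Among the extracellular antagonists, Lefty2 was high in both coelacanth groups, with levels of 2.28 and 2.95 in the LcPOU5F1 clones and 2.95 and 1.79 in the LcPOU5F3 clones, against -0.36 and -1.27 in the mOct4 clones. All 4 coelacanth-rescued clones lay above both mOct4 clones. Lefty2 rose 9.05-fold in the LcPOU5F3 clones against the mOct4 clones (3.18 ± 0.52, adjusted p = 0.017). In the LcPOU5F1 clones the measured difference was 10.8-fold (3.43 ± 0.52), which did not pass (adjusted p = 0.125, unadjusted p = 0.0011). It passed with only the 4 arrays compared (3.43, adjusted p = 0.034). Median centring also gave a call (3.06 ± 0.45), but there the standard errors of the measured genes were nearly equal (0.451 to 0.453). That fit thus hardly used the spread of Lefty2 itself. Lefty2 differed by 0.25 ± 0.52 for LcPOU5F1 over LcPOU5F3 (95% interval -1.08 to 1.58, adjusted p = 0.741). Both comparisons with mOct4 use the same mOct4 arrays.

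Lefty1 is a close paralog on the same chromosome, whose probe may share sequence with Lefty2 transcripts. Its levels were 1.52 and -0.04 in the LcPOU5F1 clones, 0.88 and 0.59 in the LcPOU5F3 clones, and 0.77 and -0.83 in the mOct4 clones. The groups overlapped, and the clones differed from each other by 1.56 in LcPOU5F1 and by 1.60 in mOct4, the widest gaps of any of the 9 genes in those groups. The fitted differences were 0.77 ± 0.72 for each coelacanth group over mOct4 (adjusted p = 0.613 for LcPOU5F1 and 0.47 for LcPOU5F3), and their 95% intervals ran from -1.05 to 2.59.

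Fst encodes follistatin, which binds activins and keeps them from their receptors. Its levels were -1.11 and -1.53 in the LcPOU5F1 clones, 0.75 and 1.47 in the LcPOU5F3 clones, and -1.79 and -2.51 in the mOct4 clones. The groups did not overlap, with the LcPOU5F3 clones highest. Fst rose 9.57-fold in the LcPOU5F3 clones against the mOct4 clones (3.26 ± 0.37, adjusted p = 0.0088). It was 5.40-fold lower in the LcPOU5F1 clones than in the LcPOU5F3 clones (-2.43 ± 0.37, adjusted p = 0.017). LcPOU5F1 over mOct4 differed by 0.83 ± 0.37 and did not pass (adjusted p = 0.358).

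Smad7, the intracellular inhibitor, had levels of 3.80 and 4.10 in the LcPOU5F1 clones, 3.41 and 2.97 in the LcPOU5F3 clones, and 3.71 and 3.93 in the mOct4 clones. The LcPOU5F3 clones were lowest and the other groups overlapped. The differences did not pass: 0.13 ± 0.22 for LcPOU5F1 over mOct4 (adjusted p = 0.78), -0.63 ± 0.22 for LcPOU5F3 over mOct4 (adjusted p = 0.097) and 0.76 ± 0.22 for LcPOU5F1 over LcPOU5F3 (adjusted p = 0.068). Without LcPOU5F3 clone 1 the last 2 passed, at -0.85 (adjusted p = 0.041) and 0.98 (adjusted p = 0.027). With normexp background correction they also passed, at -0.66 (adjusted p = 0.0375) and 0.70 (adjusted p = 0.0358).

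**Figure D3:**
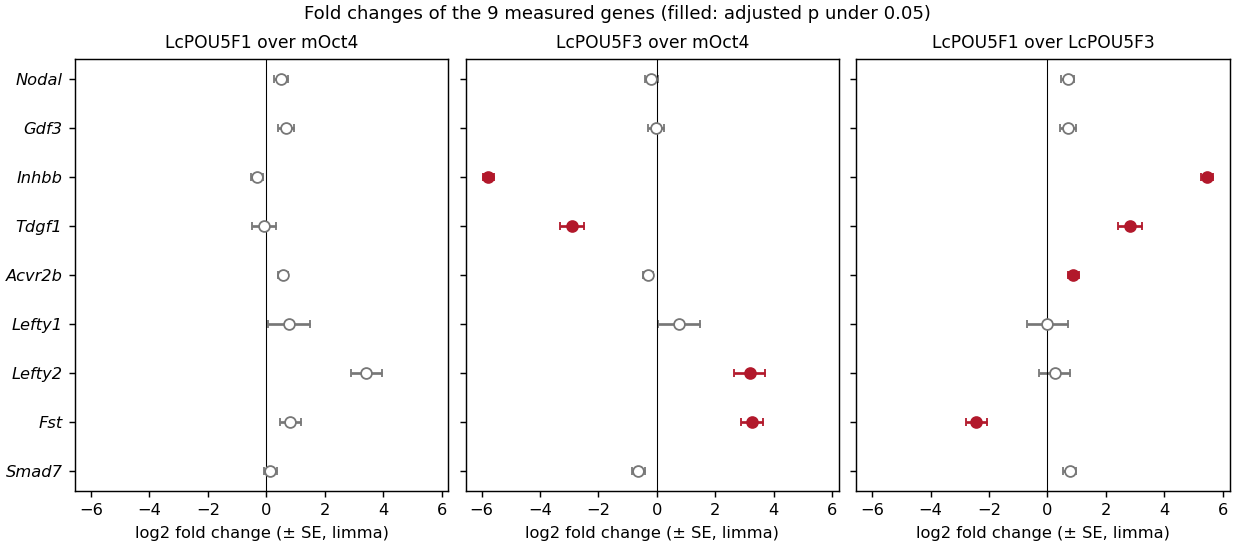
Log2 fold changes of the 9 measured genes in the 3 comparisons, with standard errors from limma. Filled points have an adjusted p under 0.05. For LcPOU5F1 over mOct4 no point is filled, while Inhbb and Tdgf1 lie low and Lefty2 and Fst high for LcPOU5F3 over mOct4.

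Counted together for LcPOU5F3 over mOct4, 2 of the 9 genes rose (Lefty2, Fst) and 2 fell (Inhbb, Tdgf1), where 11.8% of all 14590 genes were called higher, 11.7% lower and 23.5% in either direction. Their median difference was -0.18, and the median of all genes was -0.09. The median size of the difference was 0.77 for the 9 genes and 0.44 for all genes. Without mOct4 clone 1 or without mOct4 clone 2, Inhbb was the 1 gene of the 9 still called. In those fits Lefty2 differed by 3.63 and 2.72 (adjusted p = 0.087 and 0.123), Tdgf1 by -2.91 and -2.88 (adjusted p = 0.1 and 0.111) and Fst by 3.62 and 2.90 (adjusted p = 0.072 and 0.083). Slide 2 held mOct4 clone 2 alone, so the fit without it is also the value within slide 1.

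For LcPOU5F1 over mOct4, limma called 0 of the 9 genes, where 0.0137% of all genes were called higher, 0.0206% lower and 0.0343% in either direction. Lefty2, Gdf3 and Acvr2b had an unadjusted p under 0.05, 3 of the 9, against 2279 of all 14590 genes. The median difference was 0.58 for the 9 genes and 0.10 for all genes. The LcPOU5F3 clones are not compared here but enter the shared estimate of the spread. A group left with 1 array adds nothing to that estimate. The fits without LcPOU5F3 clone 1 or clone 2 are therefore the same as that of the 4 arrays compared. In that 4-array fit Lefty2 was called (adjusted p = 0.034).

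For LcPOU5F1 over LcPOU5F3, 3 of the 9 genes were higher (Inhbb, Tdgf1, Acvr2b) and 1 lower (Fst), where 10.6% of all genes were called higher, 9.99% lower and 20.6% in either direction. The median difference was 0.70 for the 9 genes and 0.21 for all genes. Leaving out an mOct4 clone gives the same fit here as the 4 arrays compared. The fit shares its spread with the mOct4 pair, and without either mOct4 clone, without either LcPOU5F1 clone, or with only the 4 arrays compared, Inhbb was the 1 gene still called. Without LcPOU5F3 clone 1 the count was 6 and without LcPOU5F3 clone 2 it was 3.

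Clones of a group differed by a median of 0.31 for the 9 genes in LcPOU5F1, 0.44 in LcPOU5F3 and 0.22 in mOct4, and by 0.21, 0.33 and 0.15 for all genes in the same order of groups. A gap over 1 was found for Lefty1 in LcPOU5F1, for Lefty2 and Tdgf1 in LcPOU5F3 and for Lefty1 in mOct4. The share of all genes with such a gap was 5.31% in LcPOU5F1, 14.6% in LcPOU5F3 and 0.905% in mOct4.

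The rest of the pathway was followed over 50 genes chosen by role, of which 38 passed the filter. For LcPOU5F3 over mOct4, 10 rose and 4 fell, against the 11.8% and 11.7% of all genes. For LcPOU5F1 over mOct4 limma called 0, against 0.0343% of all genes. At an unadjusted p under 0.05 were 9 of the 38 in that comparison, against 2279 of all 14590 genes. For LcPOU5F1 over LcPOU5F3, 1 was higher and 7 lower, against 10.6% and 9.99% of all genes. The median difference of the 38 was 0.14 for LcPOU5F1 over mOct4, 0.33 for LcPOU5F3 over mOct4 and -0.22 for LcPOU5F1 over LcPOU5F3, beside 0.10, -0.09 and 0.21 for all genes.

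For LcPOU5F1 over mOct4, the smallest p-values in each role, none of them passing, were those of the receptors Tgfbr2 (1.56 ± 0.24, adjusted p = 0.125) and Tgfbr1 (0.57 ± 0.19, adjusted p = 0.267) and of Smad4 (0.50 ± 0.13, adjusted p = 0.233) and Smad3 (0.72 ± 0.20, adjusted p = 0.234). Among ligands they were those of Gdf11 (1.17 ± 0.15, adjusted p = 0.109) and Tgfb2 (1.01 ± 0.45, adjusted p = 0.357). Among secreted antagonists and binding proteins they were those of Fstl3 (-2.16 ± 0.27, adjusted p = 0.102) and Ltbp1 (adjusted p = 0.37). Fstl3 was well above background on 1 of 2 LcPOU5F1 arrays and Ltbp1 on neither, so for Ltbp1 no fold can be given. Eomes and Sox17, given below, were those of the mesendoderm genes.

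The LcPOU5F3 over mOct4 count of 14 was 0 without either mOct4 clone and 9 without LcPOU5F3 clone 2, without either LcPOU5F1 clone or with only the 4 arrays compared. With no filter on dim probes it was 7, and over every kept probe 8. The calls over all genes, 3435 in the main fit, were 2206 with only the 4 arrays compared and 1544 with no filter. Of every kept probe, 12.6% were called. Leaving out a clone of the group not compared gives the same fit as the 4 arrays compared. The LcPOU5F1 over LcPOU5F3 count of 8 was 2 or 3 without either LcPOU5F1 clone, 2 without either mOct4 clone, 4 without LcPOU5F3 clone 2, 18 without LcPOU5F3 clone 1, and 5 with no filter or over every kept probe. The LcPOU5F1 over mOct4 count was 5 without either LcPOU5F3 clone, 1 with quantile normalization and 3 with median centring.

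Among 8 receptors and co-receptors, 6 were measured and 3 rose in the LcPOU5F3 clones against the mOct4 clones, all of them TGF-beta receptors. In that comparison 11.8% of all genes were called higher. Tgfbr2, the type II receptor, had levels of 1.05 and 1.27 in the LcPOU5F1 clones, 1.82 and 2.20 in the LcPOU5F3 clones, and -0.16 and -0.62 in the mOct4 clones. It rose 5.29-fold in the LcPOU5F3 clones (2.40 ± 0.24, adjusted p = 0.0071). A second Tgfbr2 probe differed by 1.04 ± 0.29, which did not pass in the limma fit of every kept probe (adjusted p = 0.075). Tgfbr3, the gene of the co-receptor betaglycan, rose 14-fold (3.80 ± 0.38, adjusted p = 0.0071), with 0.33 and 1.20 in the LcPOU5F3 clones and -2.87 and -3.20 in the mOct4 clones. It was not well above background in the LcPOU5F1 clones, where it was at least 9.88-fold lower than in the LcPOU5F3 clones. That bound sets the LcPOU5F3 mean against, per LcPOU5F1 array, the higher of the lowest signal well above background and the probe's own signal. Tgfbr1, the type I receptor, rose 1.77-fold (0.83 ± 0.19, adjusted p = 0.036). It did not pass in the limma fit of every kept probe (adjusted p = 0.0577). The activin receptors did not pass, with Acvr1b at -0.03 ± 0.19 and Acvr2a at 0.58 ± 0.16 (adjusted p = 0.917 and 0.0535).

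All 14 SMADs and nuclear partners were measured, and for LcPOU5F3 over mOct4 3 rose and 1 fell. In that comparison 11.8% of all genes were called higher, 11.7% lower and 23.5% in either direction. Smad3, a signal transducer of the pathway, had levels of 1.30 and 1.47 in the LcPOU5F1 clones, 2.03 and 2.45 in the LcPOU5F3 clones, and 0.74 and 0.58 in the mOct4 clones. It rose 2.99-fold in the LcPOU5F3 clones (1.58 ± 0.20, adjusted p = 0.011), while its partner Smad2 differed by 0.43 ± 0.18 (adjusted p = 0.142) and Foxh1 by -0.30 ± 0.17 (adjusted p = 0.255). The feedback inhibitors Skil and Pmepa1, both known to be induced by TGF-beta family signals, rose 1.87-fold and 1.67-fold (adjusted p = 0.043 and 0.046). In the limma fit of every kept probe, neither probe passed (adjusted p = 0.0648 for Skil and 0.0735 for Pmepa1). Second probes, at 0.49 ± 0.48 for Skil and 0.69 ± 0.23 for Pmepa1, did not pass there either (adjusted p = 0.539 and 0.112). Tgif1, a corepressor of SMADs, fell by 0.63 ± 0.15 (adjusted p = 0.038), which did not pass in that fit either (adjusted p = 0.0675). For LcPOU5F1 over LcPOU5F3, Smad3 and Skil were lower and Tgif1 higher, by 0.86, 1.05 and 0.77 on the log2 scale in size (adjusted p = 0.041, 0.034 and 0.028). In the limma fit of every kept probe Tgif1 passed there (adjusted p = 0.0485), while Smad3 and Skil did not (adjusted p = 0.0637 and 0.0507).

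Of 10 other ligands and ligand-processing genes, 8 were measured, and for LcPOU5F3 over mOct4 4 rose and 2 fell. In that comparison 11.8% of all genes were called higher and 11.7% lower. Tgfb2, a TGF-beta ligand, showed the largest rise of the 38, with levels of -1.95 and -1.21 in the LcPOU5F1 clones, 0.87 and 2.02 in the LcPOU5F3 clones, and -2.60 and -2.58 in the mOct4 clones. It was 16.4-fold higher in the LcPOU5F3 clones than in the mOct4 clones (4.04 ± 0.45, adjusted p = 0.0085). A second Tgfb2 probe, not well above background in the mOct4 clones, was at least 7.87-fold higher. The proprotein convertase genes went opposite ways: Furin rose 2.34-fold (1.23 ± 0.15, adjusted p = 0.0098), and Pcsk6 fell by 1.01 ± 0.26 (adjusted p = 0.0497). In the limma fit of every kept probe Furin passed and Pcsk6 did not (adjusted p = 0.0183 and 0.0718). Gdf1, a ligand that acts with Nodal, fell by 1.69 ± 0.39 (adjusted p = 0.037), but its second probe gave -0.15. Neither Gdf1 probe passed in the limma fit of every kept probe (adjusted p = 0.0521 and 0.847). Tgfb3 rose 2.65-fold (adjusted p = 0.029). Gdf11 was called higher (1.01 ± 0.15, adjusted p = 0.015), but of its LcPOU5F3 levels, -2.42 in clone 1 and -2.59 in clone 2, that of clone 1 was not well above background.

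Of 8 further secreted antagonists and binding proteins, 5 were measured and none passed for LcPOU5F3 over mOct4 by limma, with 0 at an unadjusted p under 0.05. Of all genes, 23.5% passed in that comparison. For LcPOU5F1 over LcPOU5F3, Fstl3, a relative of follistatin that also binds activins, was 6.67-fold lower (-2.74 ± 0.27, adjusted p = 0.0073), and Fstl1 was 5.25-fold lower (-2.39 ± 0.57, adjusted p = 0.044). In the limma fit of every kept probe Fstl3 passed and Fstl1 did not (adjusted p = 0.0127 and 0.0594). The Fstl3 levels were -2.23 and -2.83 in the LcPOU5F1 clones, 0.42 and -0.0021 in the LcPOU5F3 clones, and -0.39 and -0.35 in the mOct4 clones, and LcPOU5F1 clone 5 was not well above background. The smallest p-values for LcPOU5F3 over mOct4 were those of Fstl1 (1.40 ± 0.57, adjusted p = 0.136) and Fstl3 (0.58 ± 0.27, adjusted p = 0.171). Cer1, a Nodal antagonist of the visceral endoderm, was below background on all 6 arrays.

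Of 10 mesendoderm genes that Nodal is known to induce in the embryo, 5 were measured. Eomes, a T-box factor, had levels of -0.53 and -0.89 in the LcPOU5F1 clones, 0.28 and -0.73 in the LcPOU5F3 clones, and 1.57 and 2.02 in the mOct4 clones. It fell by 2.02 ± 0.39 in the LcPOU5F3 clones against the mOct4 clones (adjusted p = 0.024) and differed by -2.50 ± 0.39 in the LcPOU5F1 clones, which did not pass (adjusted p = 0.125). On its second probe Eomes was not well above background in either coelacanth group, which makes it at least 2.51-fold lower in LcPOU5F1 and at least 3.81-fold lower in LcPOU5F3 than in mOct4. Gsc was well above background on the mOct4 arrays alone. By the same bound on group means, it was at least 1.12-fold lower in LcPOU5F1 and at least 1.71-fold lower in LcPOU5F3. That bound leaves out the spread between clones, and neither difference passed the limma test (adjusted p = 0.496 and 0.0674). LcPOU5F1 clone 5, not well above background, had a Gsc signal of -2.52, near the -2.50 of mOct4 clone 2. Sox17, Lhx1 and Hhex did not pass in any comparison, with Sox17, which was well above background on 1 of 2 arrays in each coelacanth group, at 0.88 ± 0.21 for LcPOU5F1 over mOct4 (adjusted p = 0.194) and 0.55 ± 0.21 for LcPOU5F1 over LcPOU5F3 (adjusted p = 0.114). For T and Mixl1 every array was below that limit.

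**Figure D4:**
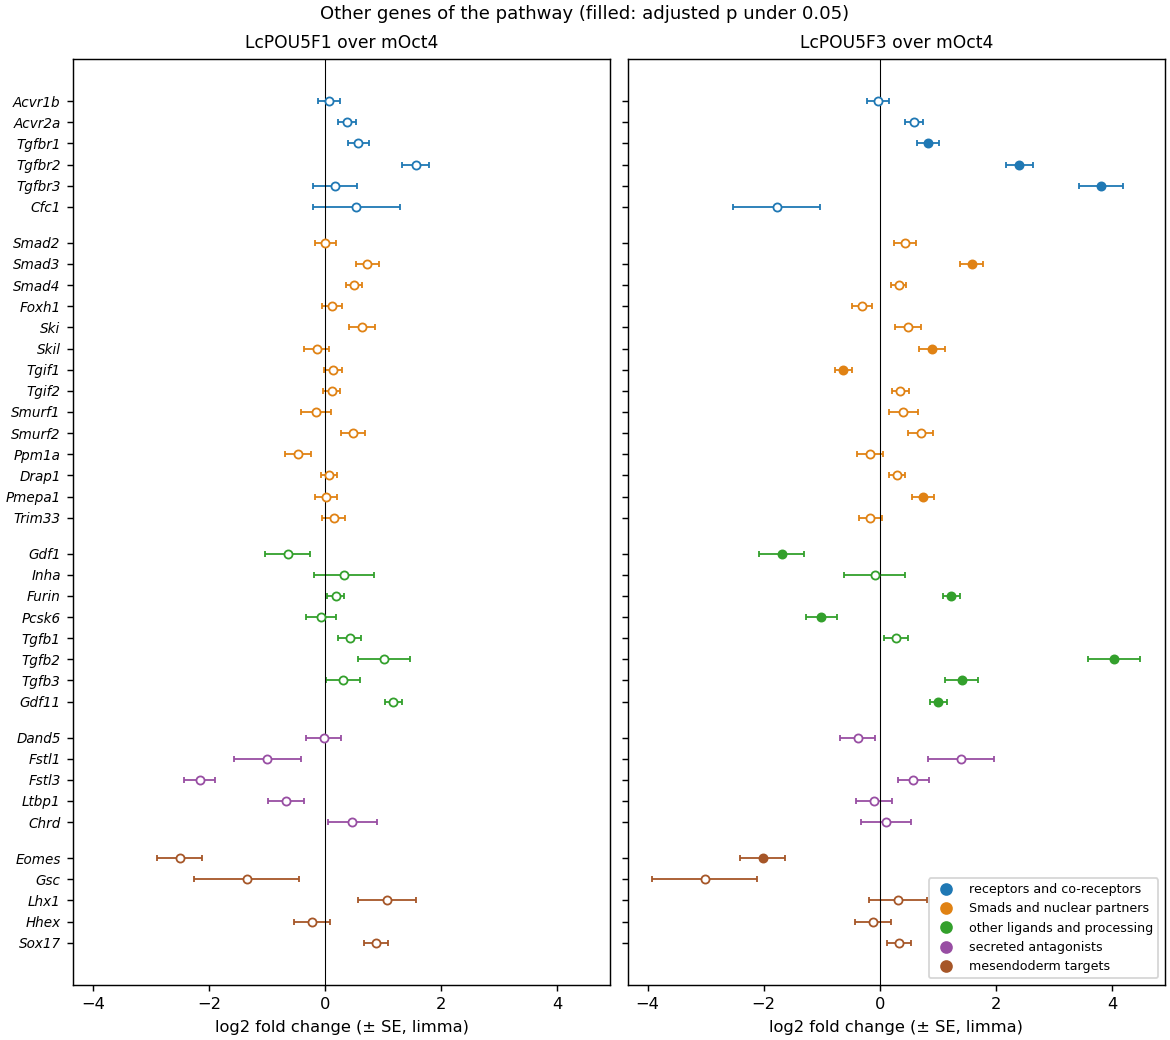
Log2 fold changes of the 38 other measured genes of the pathway, with standard errors from limma, for LcPOU5F1 over mOct4 and LcPOU5F3 over mOct4. Colours give the role and filled points have an adjusted p under 0.05. Tgfb2, Tgfbr3 and Tgfbr2 lie farthest to the right for LcPOU5F3, and Eomes lies left in both panels. Arrays not well above background enter the points of Gsc, Ltbp1 and Sox17 in both panels, of Tgfbr3, Inha and Fstl3 for LcPOU5F1, and of Cfc1 and Gdf11 for LcPOU5F3.

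The genes whose pattern over the 6 arrays came nearest to each of the 9 were found by the root-mean-square difference of levels, after centring each gene on its mean. The nearest to Inhbb was Myo1f (0.36, beside a range of 5.99 for Inhbb), that to Tdgf1 was Gm13580 (0.11, range 3.53), that to Fst was Nnat (0.17, range 3.97) and that to Lefty2 was Meis1 (0.41, range 4.22). Nodal, Gdf3, Smad7 and Acvr2b each ranged over 1.05 to 1.20 and came nearest to Prdx1, Inip, Creg1 and Nsl1, within 0.05 to 0.12. Lefty1 came nearest to Lims2 (0.33, range 2.35). Among the 9 genes themselves, Nodal and Acvr2b were nearest (0.19), and Inhbb and Tdgf1 were 1.33 apart. These values are descriptions over 6 arrays and carry no test.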

How the data were processed

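RNA of 6 clones was labelled with Cy3 and hybridised to Agilent arrays whose design names the mouse build mm9. Per the file headers, the authors extracted linear, background-subtracted and detrended spot intensity with Agilent Feature Extraction 11.0.1.1, with no scaling between arrays. The deposited files also hold the software's flags, scored 0 or 1 per spot, per the file headers. The deposited series matrix holds the same intensity, rounded. From these, log2 processed intensity minus the array's 75th percentile was computed, without control and outlier-flagged spots, and spots of 1 probe were averaged. Accessions were matched to RefSeq (GRCm38.p6, names only), which named 27656 probes with 1 symbol and left 28025 without. A probe was kept if some group had it flagged well above background in both clones (30939 kept), and the probe with the highest mean stood for each gene. Group means were fitted with limma 3.58.1 in R 4.3.3 (5.16 degrees of freedom after moderation), with Benjamini-Hochberg adjustment. The steps were tested on simulated data. The number of arrays limits the precision.

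The genes, pathway lists, markers and motifs were chosen with earlier results of these data known. All 10 genes are named whatever their values. Of the 50 pathway genes, called ones are named, and otherwise those with the smallest p; Acvr1b, Acvr2a, Smad2, Foxh1, Cer1, T, Mixl1, Lhx1 and Hhex were named after their values were seen. Alternatives were normexp (offset 50, on the median spot intensity because the mean is not among the columns used), quantile normalization, median centring, the series matrix, no filter or a filter on all 6 arrays, a fit of all kept probes or of the 4 arrays compared, slide or replicate number as a block, and leaving out single arrays. A common floor on dim signals was added after the data were seen.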

Additional observations from a re-analysis of the deposited data

Results flagged for a closer look

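Inhba, whose probe entered no comparison, was well above background on a single array. Its signal there, in LcPOU5F3 clone 2, was -3.56 on the log2 scale relative to the 75th percentile, while the other LcPOU5F3 clone, both LcPOU5F1 clones and both mOct4 clones were not well above background. The probe is Inhba's only one, and with 1 array above the limit the difference between groups was not tested.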

How the results depend on the processing

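Of the 9 genes, 0 were called for LcPOU5F1 over mOct4, against 1 with median centring and 1 with only the 4 arrays compared, and 0 to 1 when single arrays were left out. For LcPOU5F3 over mOct4, 4 were called, against 1 with slide as a block and 1 to 5 when single arrays were left out. For LcPOU5F1 over LcPOU5F3, 4 were called, against 1 with only the 4 arrays compared, 1 with slide as a block and 1 to 6 when single arrays were left out. Clones 1 and 2 occur in both LcPOU5F3 and mOct4, and the labels do not say whether same-numbered clones share more than the number. The correlation of their deviations was -0.0963, which with 2 clones per group cannot settle this. With that number as a replicate block 0 of the 9 genes were called. With a filter on all 6 arrays Inhbb was not tested, and 3 of the remaining genes were called for LcPOU5F3 over mOct4. The fit without a clone of the group not compared is the same as that of the 4 arrays compared. Why these counts moved was not tested.

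The following differences changed sign, none of them called in any of these settings. Median centring gave Smad7 -0.24 for LcPOU5F1 over mOct4, Gdf3 0.0098 for LcPOU5F3 over mOct4, and Lefty1 -0.40 and Lefty2 -0.16 for LcPOU5F1 over LcPOU5F3. Quantile normalization gave Gdf3 0.0736 for LcPOU5F3 over mOct4 and Lefty1 -0.047 for LcPOU5F1 over LcPOU5F3. Slide as a block gave Lefty1 -0.0314 for LcPOU5F1 over mOct4 and -0.0322 for LcPOU5F3 over mOct4. Leaving out single arrays gave, for LcPOU5F1 over mOct4, Lefty1 -0.0314 to 1.57, Tdgf1 -0.16 to 0.0162 and Smad7 -0.018 to 0.28. For LcPOU5F3 over mOct4 it gave Nodal -0.39 to 0.0187, Lefty1 -0.0322 to 1.57 and Gdf3 -0.33 to 0.28. For LcPOU5F1 over LcPOU5F3 it gave Lefty1 -0.78 to 0.78 and Lefty2 -0.33 to 0.83.

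Over all genes, the 5 calls for LcPOU5F1 over mOct4 became 13 with normexp, 106 with quantile normalization, 748 with median centring (47 higher, 701 lower), 529 with the 4 arrays compared, 18 with a common floor and 0 with no filter, with the filter on all 6 arrays and without either mOct4 or LcPOU5F1 clone. The 3435 for LcPOU5F3 over mOct4 became 1544 with no filter, 2206 with the 4 arrays compared, 36 and 46 without mOct4 clone 1 and clone 2, and 0 with the replicate block. The 3007 for LcPOU5F1 over LcPOU5F3 (1549 higher, 1458 lower) became 965 with no filter, 496 with the 4 arrays compared, 689 and 447 without LcPOU5F1 clone 4 and clone 5, 5851 and 1914 without LcPOU5F3 clone 1 and clone 2, 1176 higher and 1774 lower with quantile normalization, and 501 higher and 1851 lower with median centring. Median centring moved the median of all genes for LcPOU5F1 over mOct4 to -0.27, against 0.10. It also gave the measured genes nearly equal standard errors (0.451 to 0.453), so its calls hardly use the spread of each gene. Signals not well above background on at least 1 array of a group limit Inhba, Inhbb, Gsc, Tgfbr3, Fstl3, Ltbp1, Sox17, Gdf11 and the other genes named so in the text, and 2 clones per group limit all values.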
